A study of Homo sapiens with 2 samples.

Results

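MACROD2 and 7 other genes that attach ADP-ribose to proteins or take it off again were followed in MM.1S, an established human line of multiple myeloma, the plasma cell tumour. The 8 genes, MACROD1, MACROD2, PARG, OARD1, PARP1, PARP2, PARP4 and PARP8, were taken by name out of 19775 genes. MACROD2 was chosen by its ratio between these arrays, and the others were listed with their ratios known. All probe sets annotated to 1 of these symbols and to no other were used, which gave 16 of 41091 probe sets with 1 symbol. One group was MM.1S cells cultured with pDCs (plasmacytoid dendritic cells, immune cells that release much type I interferon on meeting a virus). The other was MM.1S cells cultured alone. Each group was 1 sample of total RNA on 1 Affymetrix HG-U133 Plus 2.0 array, so the values below carry no replicate error, no test was possible, and "higher" or "lower" describes these arrays. Precision is limited by the number of arrays. The labels name no treatment, time or cell ratio, and the sources used here do not say if pDCs were taken out before the RNA was made.

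ADP-ribosylation is a protein modification made from NAD. PARP enzymes, the writers, transfer ADP-ribose from NAD to proteins, either as single units or as chains. Erasers reverse this: PARG cuts the chains, and macrodomain hydrolases such as MACROD1, MACROD2 and OARD1 remove the last unit from acidic residues. The modification is best known from the response to DNA breaks, where PARP1 and PARP2, the targets of PARP inhibitor drugs, act.

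Both arrays had a common scale, and the median signal, used as a floor, was 115.9 with pDCs and 124.0 alone. Plasma cell markers were present, with 6 of 6 above the floor on both arrays and a summed signal of 95538 with pDCs against 103860 alone. Of 7 pDC markers, 4 were above the floor with pDCs and 5 alone. Their summed signal on the brightest probe sets was 5247 against 6738. TCF4 made up the largest part of both sums, so they depend on the probe set taken for TCF4. The markers were mixed: CLEC4C and IL3RA were below the floor on both arrays, and LILRA4 was above it on both, at 306 with pDCs and 256 alone. TCF4 had 3569 against 4400.5 on its brightest probe set, a log2 ratio (with pDCs minus alone) of -0.30. Its probe sets did not share a direction: the others gave 1.07 (2915 against 1392), 0.85, 0.58, 0.51, 0.51, 0.33 and -0.19. GZMB had 174 against 604, IRF7 had 1073 against 1303, and NRP1 was above the floor only alone (35.0 against 146). Of 4 monocyte markers with a probe set, 1 was above the floor with pDCs and 3 alone (summed signal 176 against 1123). The largest part of the sum alone was LYZ, at 17.0 against 711, whose other probe set was below the floor on both arrays (74.0 against 114). T cell markers were above the floor on neither array (0 of 3), and of 2 B cell markers with a probe set 1 was above it with pDCs and 2 alone. Control probe sets along the ACTB transcript differed, with log2 ratios (with pDCs minus alone) of 0.28 at the 3' end, 1.25 in the middle and 1.55 at the 5' end. For GAPDH they were 0.19, 0.36 and 0.51. The ratio of 3' to 5' signal for ACTB, a sign of RNA integrity and labelling, was 8.09 with pDCs and 19.5 alone. The part of RNA integrity and of other cell types in the ratios below was not tested. In RNA from a whole culture, a difference in the number of cells that express a gene and one in RNA per cell cannot be told apart.

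On the brightest probe set of each gene, 2 of the 8 genes were at least 2-fold higher with pDCs and 0 were at least 2-fold lower, while over all genes that exceeded the floor on 1 array or both these shares were 3.16% and 4.51%. The 2 were MACROD2 and PARP8. The others stayed within 2-fold: PARP1, PARG, PARP4 and OARD1 had positive log2 ratios, and PARP2 and MACROD1 negative ones. The median log2 ratio was 0.36 over the 8 genes and 0.17 without MACROD2, beside -0.04 over 14408 genes. Since the genes were chosen with their ratios known, these counts and medians only describe them. Of the 16 probe sets, 12 were above the floor on both arrays, 1 on 1 array and 3 on neither. Among the 13 above the floor on at least 1 array, 3 were at least 2-fold higher and 0 were lower, with shares over all probe sets of 4.19% and 4.67%.

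**Figure D1:**
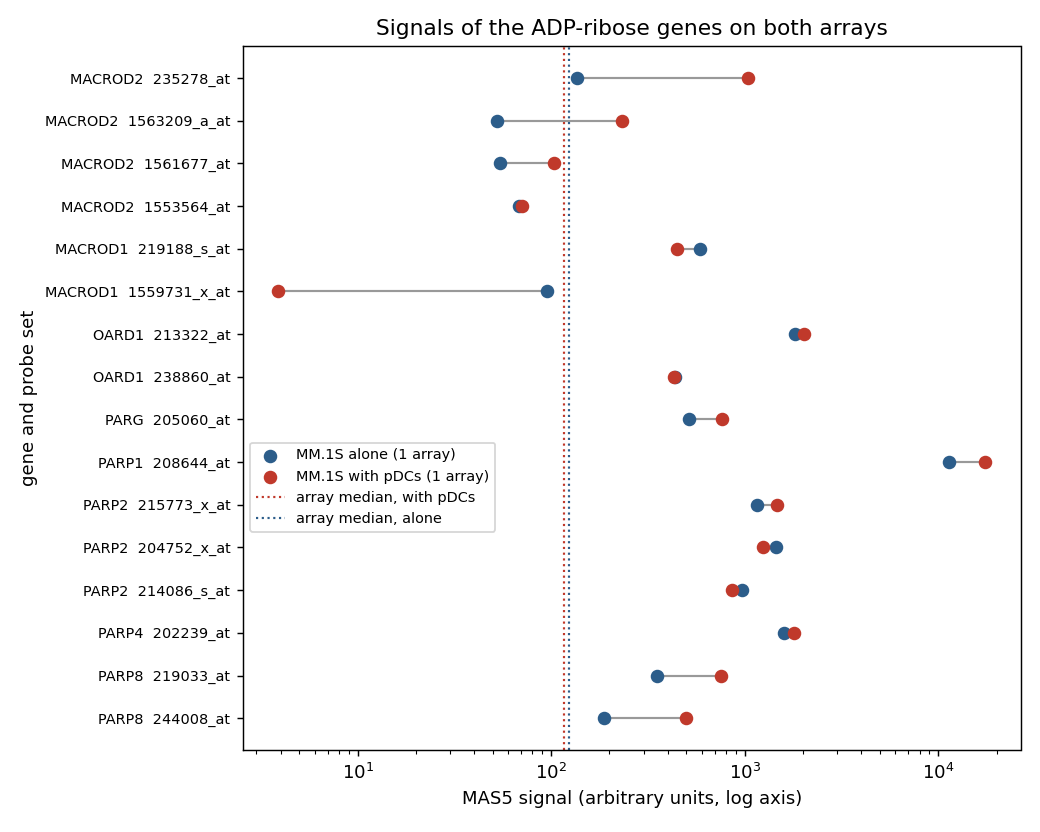
MAS5 signal (arbitrary units, log axis) of each of the 16 probe sets, 1 point per array, red for MM.1S with pDCs and blue for MM.1S alone, joined by a line; dotted lines mark the median of each array, 115.9 and 124.0. MACROD2 probe set 235278_at runs from 136 to 1043, both PARP8 probe sets are higher with pDCs, and 3 probe sets lie left of both dotted lines.

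MACROD2 removes single ADP-ribose units from acidic residues of proteins. Its brightest probe set, 235278_at, had a signal of 1043 with pDCs and 136 alone. The signal alone was just above that array's median of 124.0, so the ratio, 7.66-fold or 2.94 on the log2 scale, starts from a dim value. This was the highest ratio among the 11522 genes that exceeded both floors, which is how the gene was chosen. Probe set 1563209_a_at had a signal of 232 with pDCs against 52.2 alone, below the floor, and was at least 1.87-fold higher; with no floor its log2 ratio was 2.15. The remaining MACROD2 probe sets gave no ratio. Probe set 1561677_at had 103.5 against 54.5, and 1553564_at had 70.9 against 68.2, all below the floor. The 4 probe sets of the gene thus ran from a bright signal on the co-culture array to none above the floor, and with the median as floor only 235278_at passed 2-fold. With the floor at the 70th percentile the ratio of 235278_at became a bound, at least 1.86 on the log2 scale. With the median as floor, the mean over 235278_at and 1563209_a_at was 1.92, itself a bound because the ratio of 1563209_a_at is one.

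MACROD2 is one of the longest human genes, with a span of 2058 kb in RefSeq's GRCh38.p14 annotation. Among 27 genes with spans over 1 Mb that were above the floor on both arrays, MACROD2 included, the median log2 ratio was -0.19, 2 (7.41%) were at least 2-fold higher and 0 lower. One of the 2 is MACROD2 itself, chosen by its ratio. The share at least 2-fold higher was 4.58% of 2008 genes with spans of 100 kb to 1 Mb, 2.32% of 5043 genes of 20 to 100 kb and 2.23% of 4439 shorter genes. In the same order, the share at least 2-fold lower was 2.59%, 3.07% and 4.17%, and the median log2 ratio was 0.09, 0.01 and -0.12. FLRT3, an adhesion protein gene that lies inside MACROD2, had signals of 255 with pDCs and 242 alone on its brightest probe set, a log2 ratio of 0.08. Its other probe set had 126 against 67.6, the latter below the floor. Near-equal signals were thus seen on the brightest FLRT3 probe set, while the other gave only a bound, at least 1.01-fold higher with pDCs. Of the 7 genes nested in or beside MACROD2 and MACROD1, 6 had a ratio on their brightest probe set, 0 were past 2-fold in either direction, and the median was 0.00070. This median pools both places and 3 positive with 3 negative ratios. ESF1 had -0.81 on its brightest probe set and 0.25 on its other. KIF16B had 0.57, and its other probe set, below the floor with pDCs, was at least 1.36-fold lower. A dimmer OTUB1 probe set, below the floor alone, was at least 2.06-fold higher with pDCs (255 against 47.8). The neighbour with the highest signal was STIP1, a cochaperone gene near MACROD1, at 4088 with pDCs and 3502 alone (log2 ratio 0.22).

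RefSeq places 2 transcript starts at MACROD2 and 3 at PARP8, the other gene past 2-fold. The 250 bases before the outer start of each gene and before the inner start of MACROD2 are shown because these are the 2 genes at least 2-fold higher with pDCs, and the windows differ widely in base composition. The windows at the inner PARP8 starts are richer in G and C than the outer one. They are not printed, and their composition is given below. The printed windows are written 5' to 3' on the plus strand in lower case, with GC boxes in capitals (GGGCGG, or CCGCCC where the box is on the other strand). Their positions in GRCh38.p14 are chr20:13995266-13995515 for the outer MACROD2 start, chr20:15196590-15196839 for the inner one and chr5:50665681-50665930 for PARP8.
MACROD2 outer start: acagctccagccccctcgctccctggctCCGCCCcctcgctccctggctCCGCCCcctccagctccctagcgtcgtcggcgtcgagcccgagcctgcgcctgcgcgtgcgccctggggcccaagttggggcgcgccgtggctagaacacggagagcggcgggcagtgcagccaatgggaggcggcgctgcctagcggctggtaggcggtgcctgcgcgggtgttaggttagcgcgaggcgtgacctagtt
MACROD2 inner start: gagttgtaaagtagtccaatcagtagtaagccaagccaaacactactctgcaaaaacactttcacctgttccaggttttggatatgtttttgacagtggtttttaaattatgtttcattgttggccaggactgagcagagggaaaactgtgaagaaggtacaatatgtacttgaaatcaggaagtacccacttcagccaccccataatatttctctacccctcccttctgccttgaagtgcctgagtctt
PARP8 outer start: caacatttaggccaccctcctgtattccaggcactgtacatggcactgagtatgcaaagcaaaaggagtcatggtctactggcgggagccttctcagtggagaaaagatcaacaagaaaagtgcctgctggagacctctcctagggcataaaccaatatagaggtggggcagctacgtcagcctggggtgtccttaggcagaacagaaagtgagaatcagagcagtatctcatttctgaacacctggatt

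The outer MACROD2 window held 29 CpG dinucleotides, 73.2% G or C and 2 GC boxes, beginning 222 and 201 bases before the start. The inner MACROD2 window held 0 CpG dinucleotides and 41.6% G or C, and the outer PARP8 window held 2 and 49.2%. The median over 35116 RefSeq windows of the same length was 11 CpG dinucleotides and 58% G or C, and 42.6% of windows held a GC box on either strand. A second PARP8 window, at an inner start, held 35 CpG dinucleotides, 78% G or C and 4 GC boxes, 2 of which overlap. The third PARP8 window held 11 CpG dinucleotides, 63.6% G or C and 0 GC boxes. Patterns for factors that answer immune signals, and the TATA motif of core promoters, were also searched on both strands: the interferon response element core GAAANNGAA (found in 6.88% of all windows), the STAT motif TTCNNNGAA (6.57%), the NF-kB motif GGGNNTTTC (4.16%), the AP-1 motif TGANTCA (6.57%), and TATAAA (10.7%). None of these letter patterns occurred in the 2 MACROD2 windows or the 3 PARP8 windows. Over the 13 windows of 7 of the 8 genes, the STAT motif occurred once in OARD1 and once in PARP2, and the other 4 patterns did not occur. These matches are letter patterns in these windows only. The arrays do not tell which start a transcript came from.

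PARP8, a writer of single ADP-ribose units, was higher with pDCs on both of its probe sets. Probe set 219033_at had 755 with pDCs against 350 alone (2.16-fold, log2 ratio 1.11), and 244008_at had 495 against 188 (2.63-fold, log2 ratio 1.40). All 4 signals were above the array medians. The log2 ratios of the 2 probe sets differed by 0.29, less than the median range of 0.56 between probe sets of a gene, taken over 4844 genes that had 2 or more probe sets exceeding both floors. Genes with more than 2 probe sets, whose range tends to be wider, are part of that median, so it is only a rough guide for PARP8. In 18 of these 4844 genes (0.372%), PARP8 among them, all such probe sets were at least 2-fold higher. Of the 11522 genes exceeding both floors, 207 had a higher ratio than PARP8 on the brightest probe set. PARP8 was listed with its ratios known, so this share and rank only describe it. The log2 ratios of PARP8 lay between those of the 3' and 5' control probe sets of ACTB given above.

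**Figure D2:**
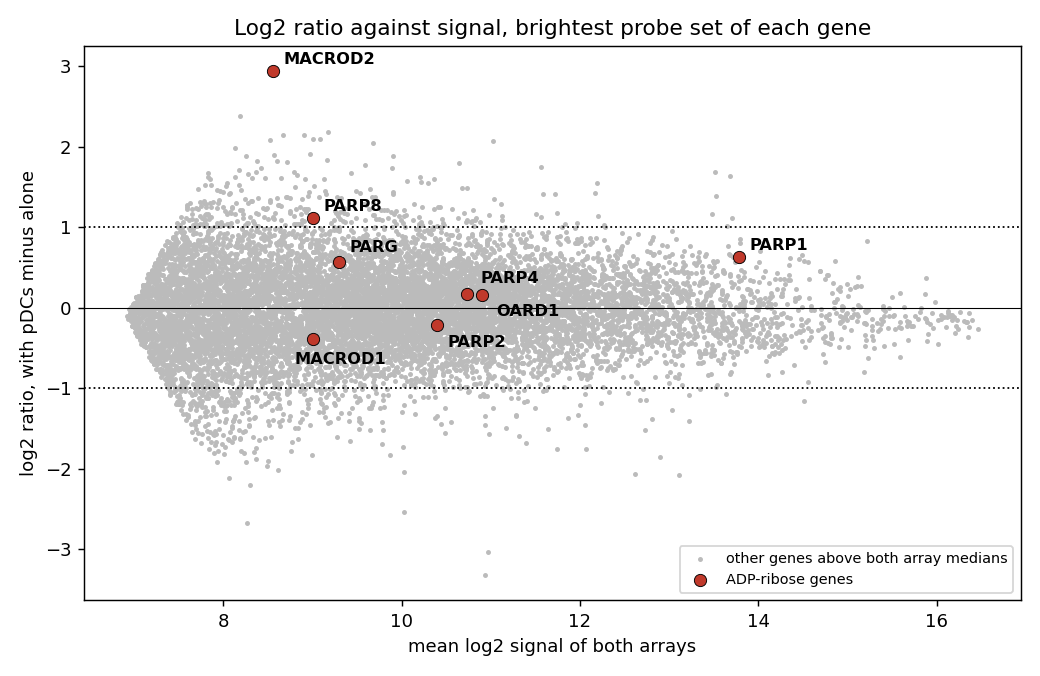
Log2 ratio (with pDCs minus alone) against the mean log2 signal of both arrays for the brightest probe set of each of 11522 genes above both array medians, with the 8 ADP-ribose genes in red and dotted lines at 2-fold. MACROD2 is the uppermost point at 2.94, PARP8 lies just above the line at 1.11, and the other 6 genes lie between -0.39 and 0.62.

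PARP1 and PARP2, which write chains, and PARP4, which writes single units, stayed within 2-fold. PARP1, the main sensor of DNA breaks among the PARPs, was bright on both arrays, with 17452 with pDCs and 11335 alone (1.54-fold, log2 ratio 0.62) on its 1 probe set. Of genes exceeding both floors, 21.1% had a ratio at least as far from 0, so the size was common. PARP2, its close relative in break repair, had 3 probe sets that did not share a direction. Probe set 204752_x_at had 1245 with pDCs and 1452 alone (log2 ratio -0.22). Probe set 215773_x_at had 1466 against 1160 (0.34), and 214086_s_at had 863 against 966 (-0.16). The x_at and s_at classes can bind several transcripts, and all 3 PARP2 probe sets are of these classes. Their range of 0.56 was close to the median range between probe sets of a gene, so no direction can be given for PARP2. PARP4, the PARP of vault particles, had 1797 with pDCs and 1600.4 alone (log2 ratio 0.17), and 73.6% of genes had a ratio at least as far from 0.

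Among the erasers other than MACROD2, PARG, which cuts ADP-ribose chains, had 763 with pDCs and 517 alone (1.47-fold, log2 ratio 0.56) on its 1 probe set, and 25.7% of genes had a ratio at least as far from 0. OARD1, which like MACROD2 frees acidic residues from ADP-ribose, had 2025 with pDCs and 1812 alone on one probe set (log2 ratio 0.16) and 430 against 434 on the other (-0.01). Its levels were thus close on both arrays. MACROD1, a mitochondrial relative of MACROD2, had 447 with pDCs and 587 alone (log2 ratio -0.39) on 219188_s_at, and 41.7% of genes had a ratio at least as far from 0. Its other probe set, 1559731_x_at, had 3.89 against 95.7, both below the floor, and gave no ratio (log2 ratio -4.62 with no floor). The macrodomain hydrolases thus differed in the size of their ratios: MACROD2 was past 2-fold higher, while OARD1 and MACROD1 were within 2-fold. The negative ratio of MACROD1 rests on 1 probe set above the floor and is smaller than the SD given next, so no direction can be given for MACROD1. As a guide to error, the pooled SD of log2 ratios between probe sets of the same gene was 0.48 over 4844 genes, and in 22% of them the probe sets were over 2-fold apart in ratio. The log2 ratios of MACROD1, PARP2, PARP4 and OARD1 on their brightest probe sets were smaller than this SD, and those of PARG and PARP1 were above it but under 2-fold. This SD is a spread between probe sets within these arrays and not one between cultures.

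The other ADP-ribose genes and the genes of NAD supply were set beside the 8. Of 10 further single-unit PARPs, 9 had a ratio, 8 positive and 1 negative, with a median log2 ratio of 0.29 and 0 past 2-fold in either direction. PARP6, the one with the highest signal, had 1831 with pDCs and 1608 alone (0.19). PARP14 and PARP9, both interferon-inducible and named after their values were seen, had log2 ratios of 0.94 (420 against 218) and -0.30 (336 against 415) on their brightest probe sets. These are the highest ratio and the 1 negative ratio of this list, so they do not stand for its other genes. The other PARP14 probe set (128 against 24.0, the latter below the floor) was at least 1.04-fold higher. The tankyrases, which build chains on telomere and WNT pathway proteins, had 0.72 for TNKS2 (2494 against 1509.9) and -0.54 for TNKS (317 against 461). Of the PARP partners, HPF1, which directs PARP1 and PARP2 to serine, had 7408 against 6259 (0.24), and DTX3L, the ubiquitin ligase partner of PARP9, had 352 against 598 (-0.76). No gene of these lists reached 2-fold on its brightest probe set.

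**Figure D3:**
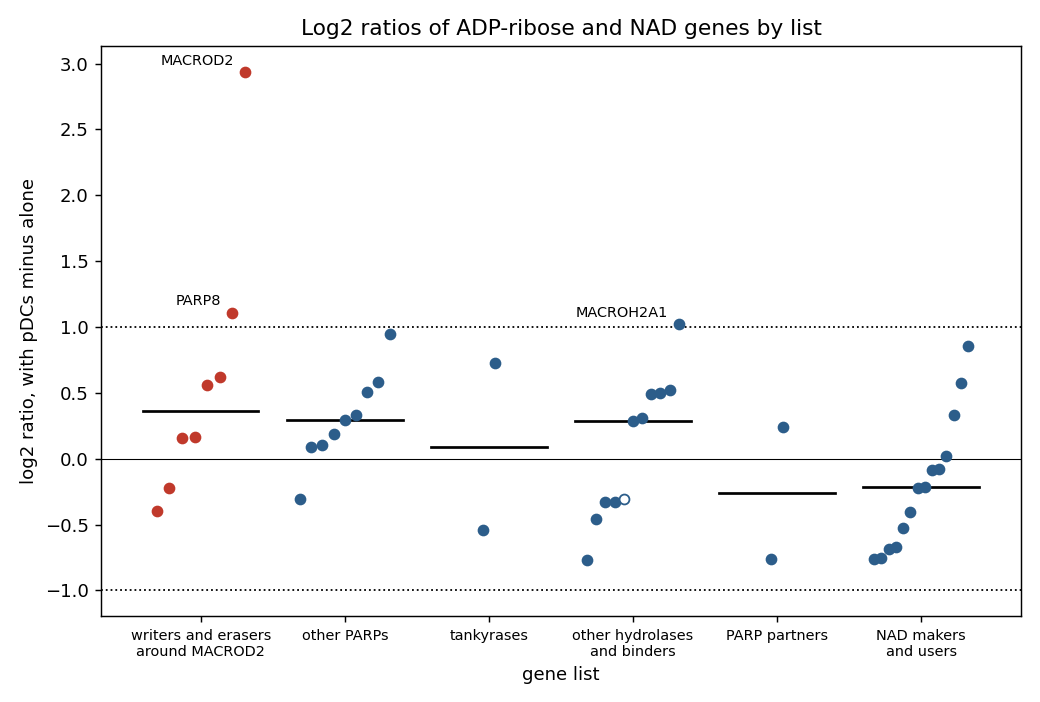
Log2 ratio (with pDCs minus alone) of each gene with a ratio on its brightest probe set, by list, with the 8 genes in red and the others in blue; the open point is a bound (ENPP1), black bars are medians and dotted lines mark 2-fold. MACROD2, PARP8 and MACROH2A1 lie above the upper line, and 10 of 14 genes of NAD supply and use lie below 0.

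Further hydrolases and ADP-ribose binding proteins were mixed, with 11 of 12 genes giving a ratio, 6 positive and 5 negative, and a median log2 ratio of 0.29. MACROH2A1, a histone variant with a macrodomain, was the one gene of this list past 2-fold on its brightest probe set and also had the highest signal. It had 18252 with pDCs against 9007 alone (log2 ratio 1.02) on its brightest probe set and 6495 against 1608 (2.01) on the next. Its 2 dimmer probe sets that exceeded both floors gave 0.40 (462 against 349.5) and -0.50 (284 against 403), so its probe sets did not share a direction. RNF146, NUDT16 and CHD1L each had a dimmer probe set, below the floor alone, at least 3.13-fold, 2.30-fold and 2.22-fold higher with pDCs. On their brightest probe sets these genes had log2 ratios of 0.50, -0.46 and 0.49. No probe set of this list was at least 2-fold lower. Genes that make or use NAD, the substrate of every writer, had 14 of 15 members with a ratio, 4 positive and 10 negative, a median of -0.22, and 0 past 2-fold on the brightest probe set. NADK, the NAD kinase with the highest signal of this list, had 6100.2 against 8075 (-0.40). NAMPT, the rate-limiting enzyme of NAD salvage, named after its values were seen, had -0.21 (3154 against 3653) and -0.08 (2550.0 against 2698) on its 2 brightest probe sets and 1.14 (1073 against 486) on another. CD38, a plasma cell surface enzyme that consumes NAD, had 1060.2 against 1686 (-0.67). Across all 14408 genes with a ratio, 46.7% were positive and the median was -0.04.

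The 3 genes whose pair of log2 signals lay nearest to that of MACROD2, by Euclidean distance over the 2 arrays, were IGFBP7, MORC1 and DSP. IGFBP7, which encodes a secreted binding protein of insulin-like growth factors, had 859 with pDCs and 194.5 alone, at a distance of 0.58. MORC1 had 758 against 179 (distance 0.61), and DSP, the desmoplakin gene, had 667 against 129 (distance 0.65). Their log2 ratios were 2.14, 2.08 and 2.37. With 1 array per group, likeness here means similar signals on both arrays and no more.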

How the data were processed

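Total RNA of MM.1S cells with pDCs and alone (1 array each, grouped by sample title) was measured on HG-U133 Plus 2.0 arrays. Per the submitters' processing notes the authors used MAS5; the deposited values are intensities on a linear scale, 1 per probe set. The sources used here give no version, background step or detection calls. The mean after trimming 2% at each end was 500.1 on both arrays, so a shift shared by most transcripts cannot be seen.

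Probe sets were named through the platform annotation, with gene identifiers checked against RefSeq GRCh38.p14 (41042 of 41091 probe sets with 1 symbol matched, 0 symbols updated); 1801 had several symbols, 11721 none and 62 were controls, and none of these was used for genes. Signals below an array's median were set to it; a ratio against such a signal is a bound. A gene was represented by its brightest probe set (mean log2 signal of both arrays). Called means at least 2-fold, with no test, p-value or standard error. Every probe set of the 8 genes is given; from each other list the genes past 2-fold and the one with the highest signal are named, and other genes are named after their values were seen, or for their position (FLRT3) or as markers (CD38 and those of pDCs). The 8 genes and all lists were chosen with earlier results of these data known. ADPRH and ADPRHL1 had no probe set with 1 symbol and were not analysed here. PARP4 had no promoter window in the table used.

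Alternatives were median centring, quantile normalization, loess (span 0.3), no floor or one at the 30th or the 70th percentile, thresholds of 1.5-fold and 3-fold, no x_at or s_at probe sets, and the mean over probe sets. Code was tested on simulated data. Python 3.11.15, numpy 2.4.6, pandas 2.3.3, statsmodels 0.14.6 and matplotlib 3.10.9 were used.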

Additional observations from a re-analysis of the deposited data

How the results depend on the processing

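MACROD2 kept a log2 ratio between 1.86 and 2.97 and PARP8 one between 1.10 and 1.25 over all alternatives run on genes, and each of the other 6 genes kept its sign and stayed within 2-fold. The count of 3 probe sets of the 8 genes at least 2-fold higher became 5 at a threshold of 1.5-fold and 1 at 3-fold, and ranged from 2 to 4 over the other alternatives. The count of 0 lower became 1 with the floor at the 30th percentile and 1 with no floor, which is MACROD1 probe set 1559731_x_at. The share of all probe sets at least 2-fold higher was 10.9% with the floor at the 30th percentile, 2.49% at the 70th and 15.4% with no floor; past 1.5-fold it was 13.9% and past 3-fold 0.558%. The share lower was 12.5%, 1.87% and 16.8% with these floors, and 15.2% and 0.613% at these thresholds. With the floor at the 30th percentile or none, 1 further single-unit PARP became at least 2-fold higher, and 1 gene of the other hydrolases and binders and 1 neighbour became at least 2-fold lower. The median of the neighbours was -0.076 with no floor, and that of the other hydrolases and binders -0.019 with the floor at the 70th percentile. Which genes have a ratio depends on the floor: SEL1L2 gains one with no floor, and GDAP2, APLF and ENPP1 lose theirs at the 70th percentile. These medians are therefore taken over other genes than the main ones. Of 218 comparisons of a result with its value under an alternative, 196 kept direction and side of the threshold, or for counts stayed within 1.5 times. Some of these could not change. The mean over probe sets leaves a gene with 1 probe set as it was, and a floor does not alter signals that lie above it. No paired analysis was possible because each group has 1 sample. With 1 array per group no spread between cultures can be had, and signals near the array median carry little above background.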
